A study of Bos taurus with 170 samples.

Results

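The genes described here encode the translation factors and the aminoacyl-tRNA synthetases measured in blastomeres of bovine embryos at the 8-cell and the 16-cell stage. They were chosen by symbol alone, as all genes of the UMI table whose name begins with EIF, EEF or ETF1 and those named after an amino acid letter followed by ARS. The choice gave 85 of 10772 genes, of which 43 were initiation factor genes, 12 elongation and termination factor genes and 30 synthetase genes. A few of the genes placed by their symbol are regulators and not factors, among them the eIF2 alpha kinases, the eIF4E-binding proteins and the methyltransferases EEF1AKMT1 and EEF2KMT. EIF1AD, EIF4A3, EIF5A and EIF5A2 were counted as initiation factor genes by their symbol, although other roles are given for them below.

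The study followed embryos through the period in which the bovine embryonic genome is activated, and sequenced single blastomeres by SCRB-Seq, a plate-based method that counts the 3′ ends of mRNA molecules through unique molecular identifiers (UMI). All embryos were *Bos taurus*, came from slaughterhouse oocytes matured and fertilised *in vitro* with frozen-thawed sperm, and were left untreated. The 6 Day 2 embryos (Day2-E1 to Day2-E6) were at the 8-cell stage and the 8 Day 3 embryos (Day3-E1 to Day3-E8) at the 16-cell stage. The embryos had been picked for favourable cleavage kinetics, so they represent embryos with a high expected competence and not all embryos. Each embryo was taken as 1 replicate and the UMI of its cells were summed. A level in CPM is the number of UMI of a gene in every 1000000 UMI that fell on genes of the embryo.

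Translation begins when a small ribosomal subunit, carrying the initiator tRNA brought by eIF2 and held open by eIF1, eIF1A and eIF3, is loaded onto a capped mRNA by the eIF4F complex and scans to the start codon. Elongation factors then deliver charged tRNAs and move the ribosome along, and eRF1, encoded by ETF1, releases the finished chain. Each synthetase charges tRNAs with its own amino acid, in the cytosol, in mitochondria or in both. The early embryo first translates mRNA stored in the oocyte and later also mRNA made by itself, and the levels given below do not separate these sources.

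After cells with fewer than 2000 UMI had been left out, 43 Day 2 and 118 Day 3 cells remained of 170. The median cell held 75114 UMI on genes on Day 2 and 24016.5 on Day 3, and an embryo held 438899 to 920192 UMI on Day 2 and 294912 to 600185 on Day 3. Day and library are partly confounded. The Day 2 embryos with Day3-E1 and Day3-E2 are called the first barcode set below. This grouping was made here, Day3-E3 could not be placed, and the set has no barcodes of its own. The name therefore stands for this choice of embryos and not for a known batch. The barcodes of the 47 Day 2 cells before filtering all recurred on Day 3 cells. Some of these lay outside Day3-E1 and Day3-E2, which held 15 and 16 cells. Plate numbers were taken from the suffix of the cell titles, which does not say what it counts. The paper mentions the collection plate only in the singular. By these numbers the Day 2 embryos lay on plates 2 and 3 only. ERCC spike-ins took 1.38% to 1.52% of the UMI on Day 2, 1.4% to 1.46% in Day3-E1 to Day3-E3 and 2.43% to 2.98% in Day3-E4 to Day3-E8. Of 93 distinct barcodes, 77 occurred on 2 cells, 47 of them on a Day 2 and a Day 3 cell, and 0 were repeated within an embryo. The oocyte and early embryo markers were present, with 9 of 12 in the table and a summed level of 7794 to 8931 CPM on Day 2 and 2476 (Day3-E8) to 9331 CPM on Day 3. Of the 12 markers of cumulus or granulosa cells 9 were in the table, at 466 to 584 CPM in sum on Day 2 and 178 to 540 CPM on Day 3. Of these, the steroidogenic CYP11A1 and HSD3B1 stayed under 8 CPM in each embryo, and most of the sum came from STAR and HAS2. Of the 8 sperm markers 4 were in the table, and their sum of 36.5 to 75.2 CPM on Day 2 and 38.9 to 101 CPM on Day 3 was almost all ODF2 (465 UMI), with 10, 4 and 3 UMI for AKAP4, TNP1 and ODF1. The normalisation factors were 1.08 to 1.13 on Day 2 and 0.698 to 1.1 on Day 3, the lowest being those of Day3-E8 (0.698) and Day3-E4 (0.786) and the highest those of Day3-E1 (1.1) and Day3-E5 (1.07).

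Taken as sums, the initiation factor and the elongation factor transcripts made up a larger part of the UMI on Day 3 and the synthetase transcripts a smaller one. On Day 2 the sum over the 43 initiation factor genes lay between 10538 and 11018 CPM. On Day 3 the sums were 11681, 17683, 13380, 20978, 13831, 16032, 17076 and 22839 CPM in Day3-E1 to Day3-E8, so that each Day 3 embryo lay above each Day 2 embryo and the mean was 1.55 times as high. The elongation and termination factor genes went from 906 to 1195 CPM on Day 2 to 1265 CPM in Day3-E1 and 3300 CPM in Day3-E8, with the other Day 3 embryos between these, a mean ratio of 2.04. The groups did not overlap here either, but this rested on EEF2. Without it Day3-E1 and Day3-E5, at 926 and 918 CPM, lay inside the Day 2 range of 667 to 962 CPM.

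The 30 synthetase genes summed to 2642 to 3197 CPM on Day 2 and to 1539 to 2729 CPM on Day 3, a mean ratio of 0.75. Day3-E1 with 2729 CPM lay inside the Day 2 range, Day3-E2 with 2591 CPM lay just under it, and the lowest sum was that of Day3-E6. With each cell thinned to 10000 UMI the ratio was 0.833, and Day3-E1 to Day3-E4 all lay inside the Day 2 range. Without NARS, Day3-E2 (1923 CPM) lay inside the Day 2 range of 1835 to 2236 CPM and Day3-E1 (1764 CPM) below it. For every 100 UMI of initiation factor genes, a ratio that does not depend on the scaling of the libraries, a Day 2 embryo held 24.4 to 29.6 UMI of synthetase genes (26 ± 1.91, SD, n = 6). A Day 3 embryo held 8.44 to 23.4 (13 ± 5.03, SD, n = 8), with the highest value in Day3-E1. No p-value was computed for these sums, because the genes were chosen with results of these data known. EIF1 and EIF4A1 were the most abundant initiation factor transcripts on Day 2, with means of 1335 and 1342 CPM, and EIF1 on Day 3, with 2857 CPM. Without EIF1 the ratio of the initiation sums was 1.47. Without EEF2 that of the elongation sums was 1.62, and without NARS that of the synthetase sums was 0.773.

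**Figure D1:**
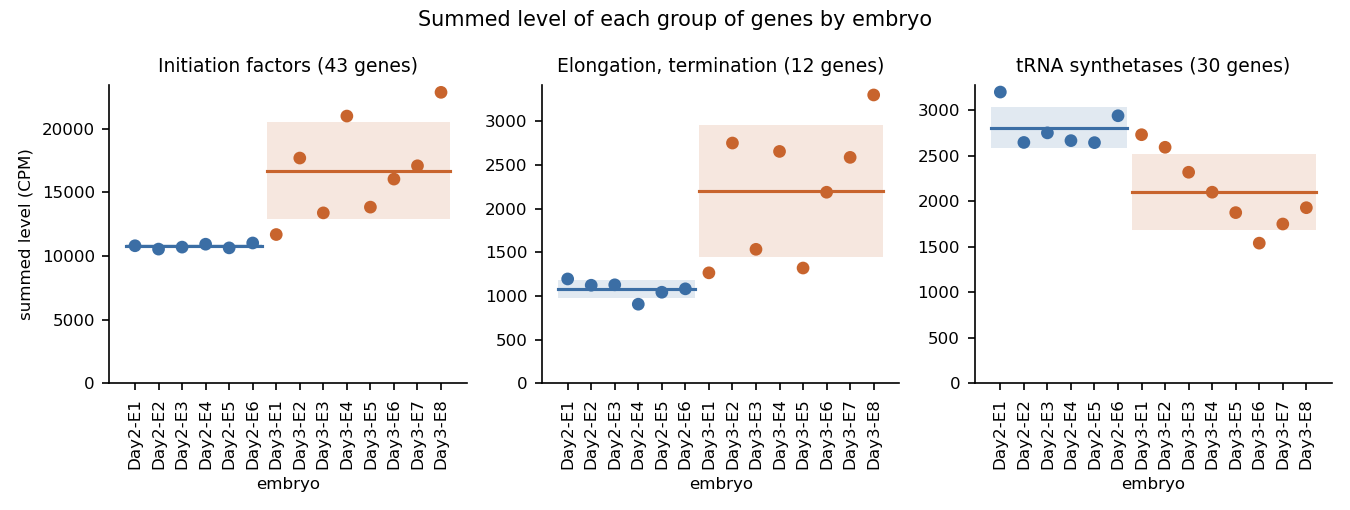
Summed level in CPM (y axis) of the initiation factor, elongation and termination factor and synthetase genes in each embryo (x axis), with a line and a shaded band for the mean and SD of the 6 Day 2 (blue) and 8 Day 3 (orange) embryos. The initiation sums ran from 10538 to 11018 CPM on Day 2 and from 11681 to 22839 CPM on Day 3, while the synthetase sums were lower in the Day 3 embryos other than Day3-E1.

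CPM are shares of a total, so a gene whose molecules did not change in number can move when other transcripts change. Likewise, in cells summed per embryo, fewer cells with a transcript and less of it per cell cannot be told apart. The sum of 75 cytosolic ribosomal protein genes, which are outside the choice, went from 16251 to 20367 CPM on Day 2 to 20550 to 65002 CPM on Day 3. It was lowest in Day3-E1 and highest in Day3-E8 and Day3-E4, the order also seen at both ends of the initiation sums, and its part in the result was not tested.

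Day 3 was compared with Day 2 gene by gene by edgeR's quasi-likelihood test on the embryo sums, with Benjamini-Hochberg adjustment over all 5274 genes that passed the filter on low counts. Of the 85 genes 62 passed it, and at an adjusted p under 0.05 the test called 25 higher on Day 3 and 6 lower. Over all genes tested 21.18% were higher and 11.28% lower. These shares are the background for the smaller lists of genes below, many of which hold few genes. Among the 37 initiation factor genes tested, 19 (51.4%) were higher and 2 (5.41%) lower, and their median log2 fold change was 0.70 against -0.04 over all genes. The 19 include EIF1AD, EIF4A3, EIF5A and EIF5A2, which are in this group by symbol only. Of 9 elongation and termination factor genes 4 (44.4%) were higher and 0 lower, with a median of 0.59. In this group 0 were lower also at an unadjusted p under 0.05 and by DESeq2. Of the 16 synthetase genes tested 2 (12.5%) were higher and 4 (25%) lower, with a median of -0.26. The filter had removed the other 14 synthetase genes. Over all 30, DESeq2 called 7 higher and 4 lower, and edgeR with no filter 6 higher and 4 lower. More genes were higher than lower over all genes in these fits too. They were 1739 higher and 822 lower of 8683 by DESeq2, and 1533 and 657 of 10772 with no filter.

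The scaling mattered for these counts. Without TMM, the composition scaling of edgeR, the median over all genes moved to -0.27 and the calls over all genes changed from 1117 higher and 595 lower to 890 (16.88%) and 981 (18.6%). The initiation factor genes were then 15 higher and 5 lower with a median of 0.37, the elongation group 2 higher and 0 lower with 0.32, and the synthetases 2 higher and 6 lower with -0.49. The medians of the 3 groups kept their order, but the scaling moves all genes of an embryo by the same factor, so this could hardly have changed.

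**Figure D2:**
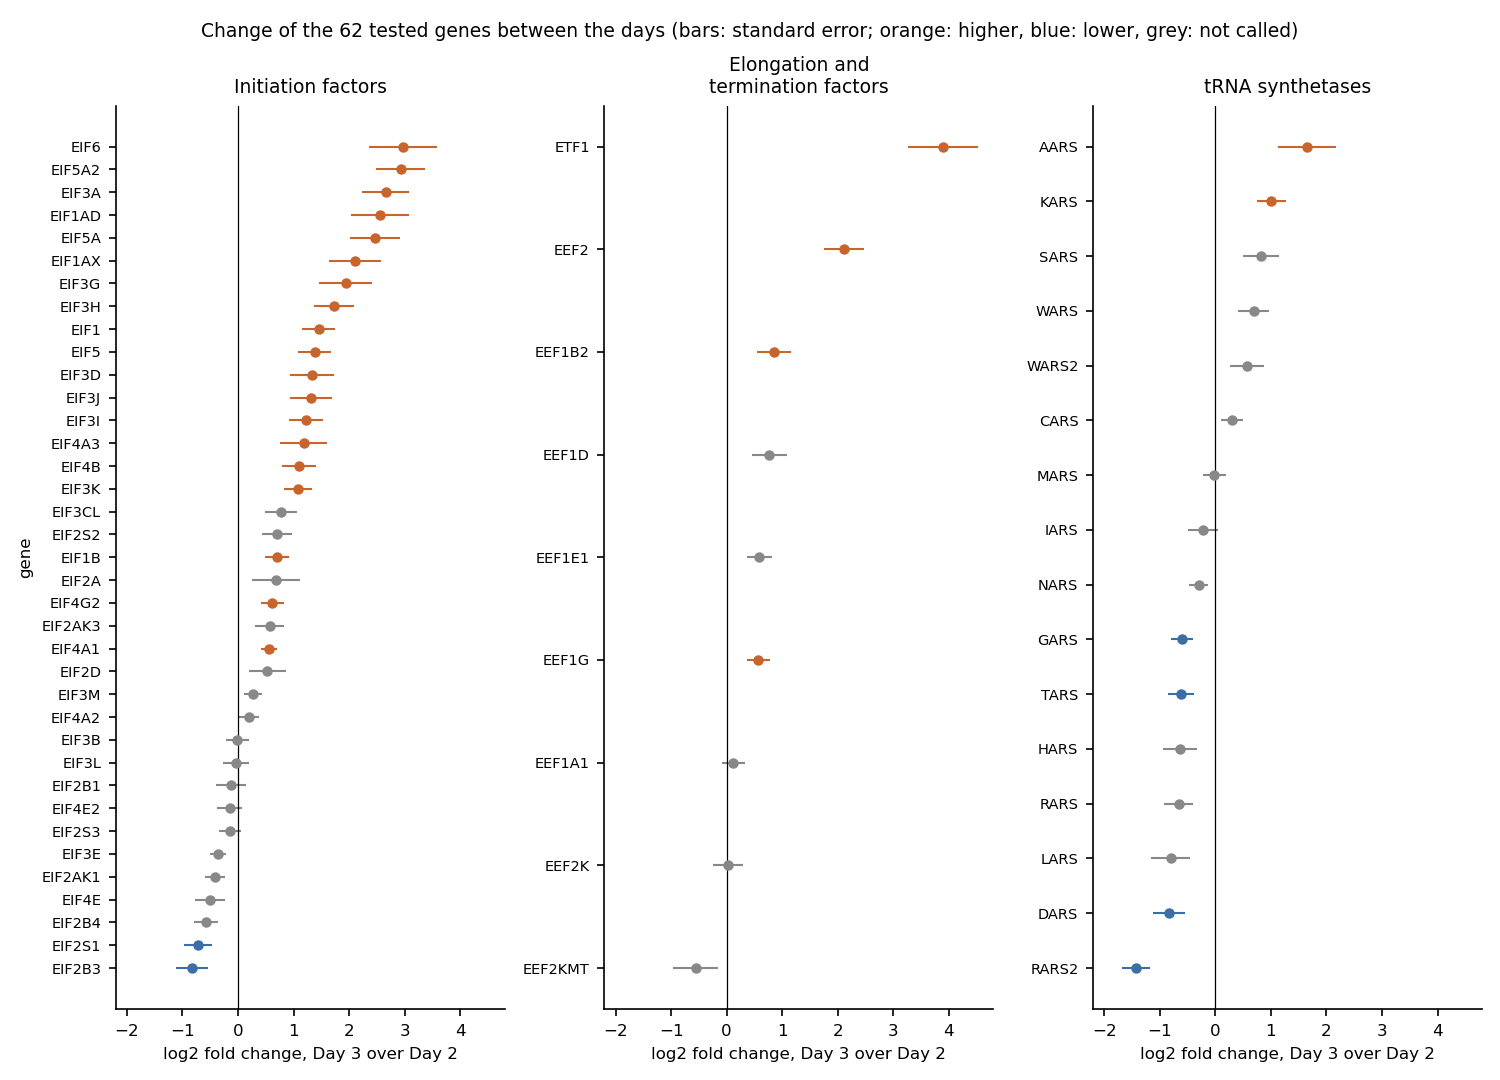
Log2 fold change of Day 3 over Day 2 (x axis; points with standard error bars, edgeR) of the 62 genes tested (y axis), in a panel per group, with genes called higher in orange, lower in blue and the others in grey. ETF1 had the largest rise with 3.9 and RARS2 the largest fall with -1.42.

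Among the genes that act with eIF1 and eIF1A at the start codon or on subunit joining, all 5 tested were higher on Day 3 (4 without TMM). EIF1, whose product holds the scanning subunit open, was at 1209, 1302 and 1563 CPM (lowest, median and highest) in the 6 Day 2 embryos and at 1718, 2796 and 4486 CPM in the 8 Day 3 embryos. Every Day 3 embryo lay above every Day 2 embryo, with a log2 fold change of 1.45 (SE 0.29, adjusted p = 0.00145 by edgeR). EIF1AX, which encodes its partner eIF1A, was at 131, 157 and 183 CPM on Day 2 and 143, 430 and 1251 CPM on Day 3. Its Day3-E1 value of 143 CPM lay inside the Day 2 range and the other 7 above it (2.1, SE 0.47, adjusted p = 0.00318 by edgeR).

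EIF5, the GTPase-activating protein that triggers GTP hydrolysis on eIF2, was at 608, 685 and 854 CPM on Day 2 and 755, 1613 and 2312 CPM on Day 3, where Day3-E1 (755 CPM) and Day3-E3 (830 CPM) overlapped with Day 2 (1.38, SE 0.30, adjusted p = 0.00268). EIF6 keeps free large subunits from joining small ones. It went from 36.5, 47.5 and 68.5 CPM to 55, 205 and 752 CPM, with only Day3-E1 inside the Day 2 range (2.97, SE 0.62, adjusted p = 0.00207). EIF1B, a close paralogue of EIF1, changed least of the 5, from 918, 963 and 1057 CPM to 709, 1277 and 1838 CPM. Its highest value was in Day3-E4 and its lowest in Day3-E2, under all Day 2 embryos (0.70, SE 0.21, adjusted p = 0.0168). The call of EIF1B was lost without Day2-E1, Day2-E4 or Day2-E5, with an adjusted p of up to 0.0538, and without TMM it was not made (0.42, adjusted p = 0.0961). For every 100 UMI of EIF1B the Day 2 embryos held 130 to 148 UMI of EIF1, and the Day 3 embryos 134 to 369.

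EIF1AD, a nuclear protein with an eIF1A-like domain, is not known as an initiation factor and was included by its symbol. It rose from 14, 29.2 and 38.7 CPM to 18.3, 130 and 239 CPM, again with only Day3-E1 in the Day 2 range (2.56, SE 0.52, adjusted p = 0.00172 by edgeR).

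The genes of eIF2, which carries the initiator tRNA, and of its exchange factor eIF2B gave fewer calls, in both directions. Of the 5 tested genes for eIF2 subunits and for the alternative carriers eIF2A and eIF2D, 0 were called higher (1 at an unadjusted p under 0.05, 0 by DESeq2) and 1 was lower. EIF2S1, the alpha subunit whose phosphorylation blocks initiation, was at 31.9, 53.4 and 62 CPM on Day 2 and at 10, 25 and 37.3 CPM on Day 3. Only Day3-E2 and Day3-E6, with 37.3 and 35.1 CPM, reached the range of the Day 2 embryos (-0.72, SE 0.25, adjusted p = 0.0357). This call was lost without Day2-E1, Day2-E2, Day2-E4, Day2-E5, Day3-E3 or Day3-E5, with an adjusted p of up to 0.0653. The beta subunit gene EIF2S2 had a log2 fold change of 0.70 (adjusted p = 0.0599) and the gamma subunit gene EIF2S3 of -0.15 (adjusted p = 0.581). EIF2S2 passed the threshold without Day3-E1 (adjusted p = 0.0204) and without Day3-E5. EIF2A and EIF2D had 0.69 and 0.53, and EIF2D was called only without Day3-E6 (adjusted p = 0.0489).

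Of the 4 genes of eIF2B, the complex that reloads eIF2 with GTP, 3 were tested and 1 was lower, while DESeq2, which tested all 4, called 1 higher and 2 lower. EIF2B3 went from 83.7, 89.2 and 113 CPM to 12, 38.5 and 101 CPM. Day3-E5 with 101 CPM lay among the Day 2 embryos and the other 7 Day 3 embryos below all of them (-0.83, SE 0.29, adjusted p = 0.0384 by edgeR). The call did not hold in 11 of the 14 fits that left out 1 embryo, all but those without Day3-E1, Day3-E3 and Day3-E5, and its adjusted p reached 0.0712 without Day2-E1. EIF2B4 had -0.58 (adjusted p = 0.0535) and was called without Day3-E1 (adjusted p = 0.0149), Day3-E2 or Day3-E6, and EIF2B1 had -0.13. EIF2B2 was too low for the filter, at 5.12 to 13 CPM on Day 2 and 7.86 to 98.6 CPM on Day 3, where Day3-E4 and Day3-E8 held the highest values. An exact two-sided permutation test of its mean gave p = 0.0343 and an adjusted p of 0.227. After adjustment this test called 0 of the 5498 genes that did not pass the filter. EIF2B2 was called higher on its counts, with 2.32 by edgeR with no filter (adjusted p = 0.00373), 1.53 on plate 3 (0.0236) and 3.99 on plate 2 (0.00692), and with an adjusted p of 0.000443 by DESeq2.

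The 3 genes of eIF2 alpha kinases, the stress-sensing enzymes that act on EIF2S1's product, gave 0 calls by edgeR and 0 by DESeq2. At an unadjusted p under 0.05 EIF2AK3 was higher (0.57, adjusted p = 0.0958) and EIF2AK1 lower (-0.41, adjusted p = 0.086). EIF2AK1 was at 189 to 254 CPM on Day 2 and 97 to 202 CPM on Day 3, and without TMM it was called lower (-0.64, adjusted p = 0.03). EIF2AK2 was nearly undetected, with at most 2.19 CPM in an embryo.

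Of the 12 genes of eIF3, the largest initiation factor, which binds the small subunit, 7 were higher and 0 lower, with a median log2 fold change of 1.15. At an unadjusted p under 0.05, 8 were higher and 1 lower, and DESeq2 called 8 and 1. EIF3A, the largest subunit and scaffold, changed most. It was at 328, 388 and 447 CPM on Day 2 and at 555, 1781 and 3424 CPM on Day 3, and the lowest Day 3 value, in Day3-E1, lay above every Day 2 embryo (2.66, SE 0.42, adjusted p = 0.000297). EIF3H went from 123, 131 and 151 CPM to 158, 290 and 583 CPM without overlap, Day3-E1 again being the lowest (1.73, SE 0.36, adjusted p = 0.00209).

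EIF3G, which contacts the scanning complex near the mRNA entry, was much lower in level, at 13, 15 and 21.4 CPM on Day 2 and 17, 38.7 and 98.6 CPM on Day 3, with Day3-E1 and Day3-E5 in the Day 2 range (1.94, SE 0.48, adjusted p = 0.00624). EIF3D, a cap-binding subunit, rose from 79.1, 92.3 and 96 CPM to 72.8, 134 and 326 CPM. Day3-E5 was below and Day3-E1 within the Day 2 embryos (1.33, SE 0.39, adjusted p = 0.0177). EIF3J, a loosely bound subunit, went from 120, 159 and 171 CPM to 137, 278 and 613 CPM, and Day3-E1, Day3-E3 and Day3-E5 stayed in the Day 2 range (1.31, SE 0.38, adjusted p = 0.0152). The other 2 subunit genes called higher were EIF3I (1.22) and EIF3K (1.08).

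The subunit gene EIF3E did not follow these, and is named here after its values were seen. It was at 546, 629 and 711 CPM on Day 2 and 302, 381 and 526 CPM on Day 3, so that each Day 3 embryo lay below each Day 2 embryo in CPM. The test with TMM gave -0.36 (SE 0.15, adjusted p = 0.0645), the test without TMM -0.61 (adjusted p = 0.0132), and the fit without Day3-E8 an adjusted p of 0.0351. For every 100 UMI of EIF3E the embryos held 46.2 to 71.8 UMI of EIF3A on Day 2 and 107 to 964 on Day 3. The lack of overlap in this ratio follows from the choice of the pair. Each Day 3 embryo lay above the Day 2 embryos in EIF3A and below them in EIF3E. The 4 other subunit genes that were not called had log2 fold changes between -0.04 and 0.78, the highest being that of EIF3CL (adjusted p = 0.0503), a copy of EIF3C with which it could share reads. EIF3CL passed the threshold without Day3-E1 (adjusted p = 0.0107), Day3-E5 or Day3-E6.

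**Figure D3:**
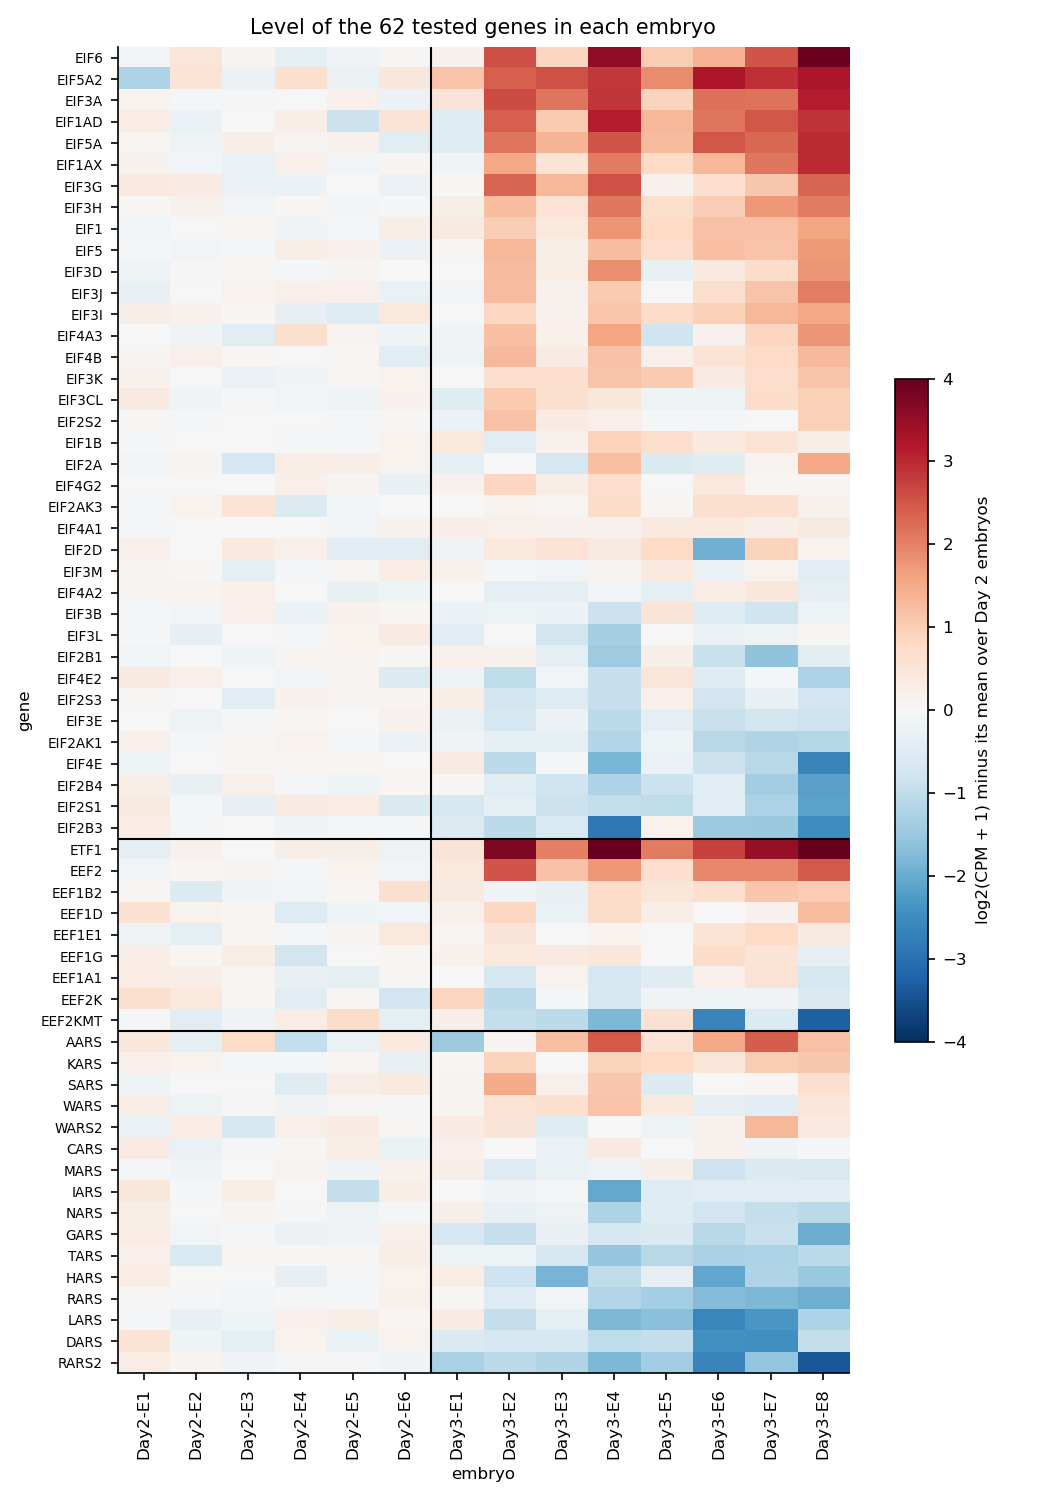
Level of the 62 genes tested (y axis, in 3 blocks from top to bottom for initiation, elongation and termination, and synthetase genes) in each embryo (x axis), as log2(CPM + 1) minus its mean over the 6 Day 2 embryos, from blue (lower) to red (higher). Day3-E1 looked most like the Day 2 embryos, and Day3-E4 or Day3-E8 held the highest value in 19 of the 25 genes called higher. This count was not set against all genes called higher.

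Among the genes of cap binding and mRNA unwinding, the eIF4 factors, 3 of 6 tested were higher and 0 lower (0 also at an unadjusted p under 0.05 and by DESeq2), and without TMM 1 was higher. Their summed level changed little, from 3165 to 3394 CPM on Day 2 to 3210 to 3754 CPM on Day 3. EIF4A1, the main helicase of eIF4F, moved by a small and even amount. It was at 1230, 1338 and 1504 CPM on Day 2 and 1506, 1604 and 1762 CPM on Day 3, with no overlap but only 2 CPM between Day2-E6 and Day3-E4 (0.56, SE 0.15, adjusted p = 0.0114 by edgeR). Without TMM its fold change was 0.28 and it was not called (adjusted p = 0.143).

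Other genes in this list are named after their values were seen. EIF4B, the helicase cofactor, was called higher with 1.1 (adjusted p = 0.0115) and EIF4G2, a scaffold without a cap-binding partner, with 0.62 (adjusted p = 0.0247). The EIF4G2 call was lost without Day2-E1, Day2-E2, Day2-E3, Day2-E5 or Day2-E6, with an adjusted p of up to 0.0754. The cap-binding protein gene EIF4E was at 549, 628 and 660 CPM on Day 2 and spread from 95.2 in Day3-E8 to 770 CPM in Day3-E1 on Day 3, with a median of 320 (-0.51, SE 0.27, adjusted p = 0.152). It was called lower only without Day3-E1 (adjusted p = 0.0322) among the fits that left out 1 embryo. The eIF4E-binding protein genes EIF4EBP1, EIF4EBP2 and EIF4EBP3, whose products hold eIF4E back, were all too low for the filter. Their sum was 14 to 34.3 CPM on Day 2 and 15 to 62.8 CPM on Day 3.

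Both genes of eIF5A, the hypusine-bearing factor that helps the ribosome over difficult peptide bonds, were higher. EIF5A went from 86.6, 124 and 137 CPM to 83.3, 545 and 932 CPM, with Day3-E1 below all Day 2 embryos and the other 7 above all of them (2.46, SE 0.45, adjusted p = 0.000833). EIF5A2 went from 2.1, 7.2 and 11 CPM to 15, 46.4 and 69.5 CPM with no overlap (2.93, SE 0.44, adjusted p = 0.000212 by edgeR). It rested on 29 UMI on Day 2 and 138 on Day 3, and the level of EIF5A2 in Day2-E1 was a single UMI.

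Of the elongation factors, EEF2 changed most. It encodes eEF2, the translocase that moves the ribosome by a codon, and was at 230, 249 and 273 CPM on Day 2 and at 338, 890 and 1431 CPM on Day 3. The lowest Day 3 embryos were Day3-E1 and Day3-E5 (338 and 403 CPM), and both lay above every Day 2 embryo (2.1, SE 0.36, adjusted p = 0.000486 by edgeR). EEF2K, whose product inhibits eEF2, had 0.03 (adjusted p = 0.94) and -0.19 without TMM.

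The genes of the eEF1 complex, which delivers charged tRNAs and recharges eEF1A with GTP, changed less. EEF1A1, the tRNA carrier itself, was at 251, 328 and 395 CPM on Day 2 and 200, 277 and 475 CPM on Day 3. The days overlapped, and the change was 0.12 (SE 0.21, adjusted p = 0.69) with TMM and -0.13 without it, so its sign depended on the scaling. For every 100 UMI of EEF1A1 the embryos held 58.9 to 109 UMI of EEF2 on Day 2 and 104 to 703 on Day 3. EEF1A2, the form of muscle and neurons, had 0 UMI in the Day 2 embryos and at most 5.15 CPM on Day 3.

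EEF1B2, a subunit of the exchange factor, rose from 58.7, 85.8 and 137 CPM to 70.7, 130 and 188 CPM (0.85, SE 0.30, adjusted p = 0.0359), and EEF1G, another subunit, from 80.7, 143 and 166 CPM to 108, 179 and 226 CPM (0.57, SE 0.21, adjusted p = 0.0438). The days overlapped in both, and neither was called without TMM (0.55 and 0.30, adjusted p = 0.102 and 0.27). The call of EEF1B2 was lost without any one of Day2-E1 to Day2-E5, Day3-E4, Day3-E6, Day3-E7 and Day3-E8, with an adjusted p of up to 0.0905. That of EEF1G was lost without any one of the 6 Day 2 embryos and without Day3-E2, Day3-E4, Day3-E6 or Day3-E7, with an adjusted p of up to 0.138 without Day2-E4. EEF1D, a further exchange subunit, and EEF1E1, known as a scaffold of the multi-synthetase complex, had 0.77 and 0.59 (adjusted p = 0.0632 and 0.0587). EEF1D was called without Day3-E1 or Day3-E3 and EEF1E1 without Day3-E1, Day3-E3 or Day3-E5, with adjusted p down to 0.0341 and 0.0329.

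ETF1, the termination factor that reads all stop codons, had the largest change of the 62 genes. It was at 32.1, 45 and 50.2 CPM on Day 2 and at 61.6, 389 and 1092 CPM on Day 3, a ratio of the means of 11. Day3-E1 lay just above the Day 2 embryos, Day3-E3 and Day3-E5 followed with 175 and 182 CPM, and Day3-E4 and Day3-E8 held 1010 and 1092 CPM. The log2 fold change was 3.9 (SE 0.63, adjusted p = 0.000353 by edgeR). Without both Day3-E4 and Day3-E8, a setting chosen after seeing the data, it was 2.94 (adjusted p = 0.000161). With each cell thinned to 10000 UMI, ETF1 was detected in 17 of the 37 cells left on Day 2 (45.9%) and in 87 of the 103 left on Day 3 (84.5%), while before thinning the shares were 88.4% and 94.1% of the cells kept.

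**Figure D4:**
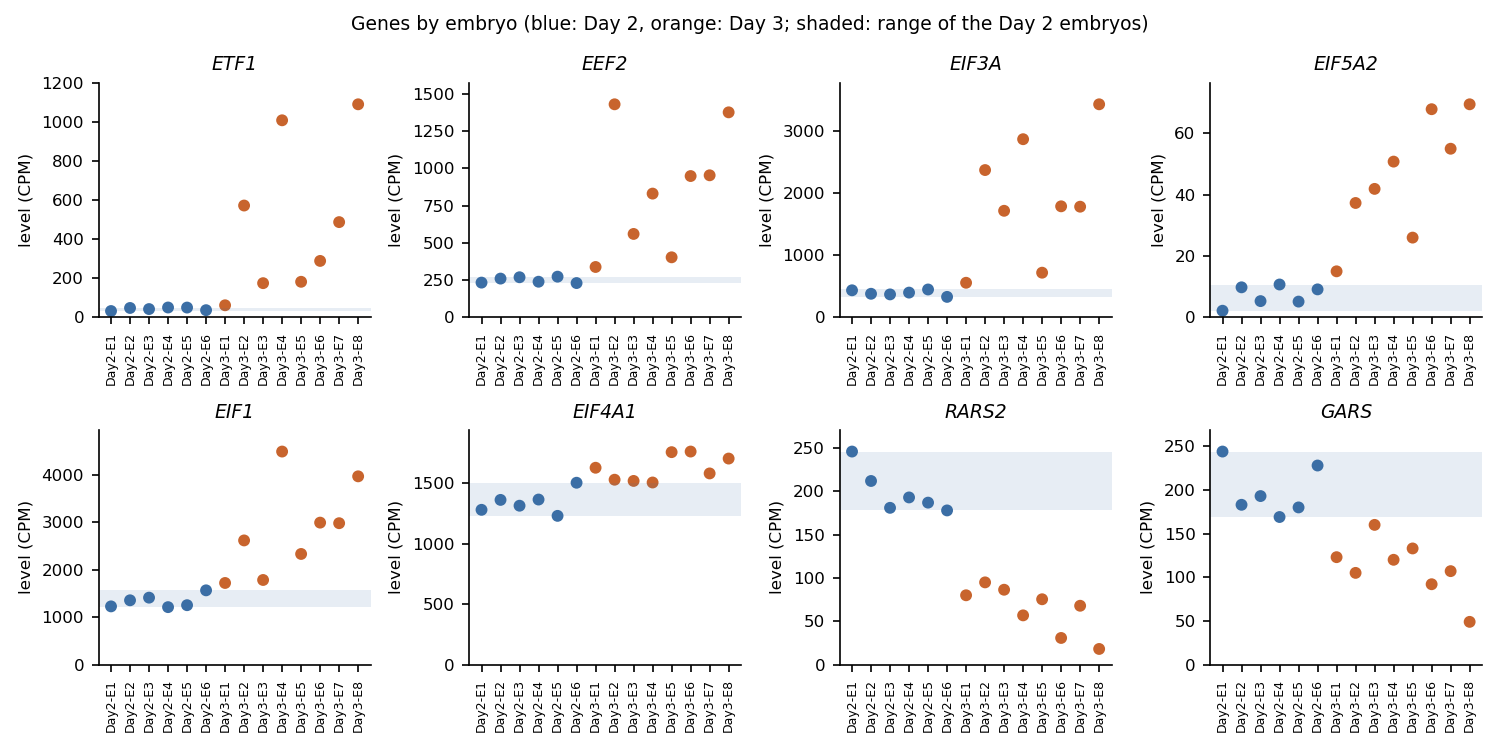
Level in CPM (y axis, from 0) of 8 genes in each embryo (x axis), Day 2 in blue and Day 3 in orange, with the range of the Day 2 embryos shaded. The 8 genes were picked from those without overlap between the days, so the lack of overlap in all 8 follows from the choice. Of the 62 genes tested, every Day 3 embryo lay above every Day 2 embryo in 7 and below in 4. Over all genes tested the shares were 3.98% and 5.38%. ETF1 was at 32.1 to 50.2 CPM on Day 2 and 61.6 to 1092 CPM on Day 3, and RARS2 at 178 to 246 and 18 to 94.9 CPM.

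Of 14 cytosolic synthetase genes 12 were tested, and 1 was higher and 2 lower (1 and 4 without TMM; 3 and 2 of all 14 by DESeq2). DARS, which charges aspartate tRNA, was at 112, 145 and 212 CPM on Day 2 and 25.9, 75 and 96.6 CPM on Day 3, so that every Day 3 embryo lay below every Day 2 embryo (-0.84, SE 0.29, adjusted p = 0.0349 by edgeR). The call was lost without Day2-E1 (adjusted p = 0.0671) or Day2-E4. TARS, for threonine, went from 92.4, 148 and 173 CPM to 47.8, 66 and 125 CPM. Day3-E1, Day3-E2 and the low Day2-E2 made the days overlap (-0.62, SE 0.23, adjusted p = 0.0485). That call was lost in 10 of 14 fits that left out 1 embryo, those without Day2-E1, Day2-E3 to Day2-E6 or Day3-E3 to Day3-E7, with an adjusted p of up to 0.0876 without Day3-E4.

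AARS, the alanine enzyme, was the 1 cytosolic synthetase called higher. It was at 7.61, 17 and 26.4 CPM on Day 2 and 5, 36.3 and 89.7 CPM on Day 3, with the lowest value in Day3-E1 and the highest in Day3-E4 and Day3-E7 (1.65, SE 0.53, adjusted p = 0.0248). The call was lost without Day2-E2, Day2-E4, Day2-E5, Day3-E4 or Day3-E7, with an adjusted p of up to 0.0614. Among embryos of the first barcode set the change of AARS was -0.62 (adjusted p = 0.681), there resting on Day3-E1 and Day3-E2 alone.

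NARS and RARS, for asparagine and arginine, were the most abundant synthetase transcripts in mean level and were not called. NARS was at 705, 804 and 962 CPM on Day 2 and at 350, 533 and 965 CPM on Day 3, where Day3-E1 was the highest of all 14 embryos (-0.30, SE 0.17, adjusted p = 0.197). RARS was at 511, 530 and 629 CPM on Day 2 and 142, 228 and 565 CPM on Day 3. Day3-E1 and Day3-E3 lay in the Day 2 range and the other 6 below 400 CPM (-0.66, SE 0.26, adjusted p = 0.0617). RARS was called lower without Day3-E1 (adjusted p = 0.0155), without Day3-E3 and without TMM (-0.88, adjusted p = 0.0267). With plate as a covariate its change was -1.42 (adjusted p = 0.000307), and it was -1.35 on plate 3 alone and -1.53 on plate 2 alone. By the cell titles plate 1 held Day3-E1 to Day3-E4 and 0 Day 2 embryos. These changes therefore compare the Day 2 embryos with Day3-E5 to Day3-E8. Plate and the state of the embryos cannot be told apart here.

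The 2 enzymes shared by cytosol and mitochondria went opposite ways. GARS, for glycine, fell from 169, 188 and 244 CPM to 48.9, 113 and 160 CPM without overlap (-0.60, SE 0.19, adjusted p = 0.0233), and KARS, for lysine, rose from 79.7, 101 and 115 CPM to 96.9, 180 and 209 CPM, with Day3-E1 and Day3-E3 in the Day 2 range (1.01, SE 0.26, adjusted p = 0.00744). Both calls held when any 1 embryo was left out. For every 100 UMI of KARS the embryos held 491 to 789 UMI of RARS on Day 2 and 67.9 to 556 on Day 3, the Day 3 values in Day3-E1 and Day3-E3 being 556 and 527.

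Of the 14 genes for purely mitochondrial synthetases, 2 passed the filter and 1 was lower, while DESeq2, which tested all 14, called 3 higher and 1 lower. RARS2, the mitochondrial arginine enzyme, had the largest fall of the 62 genes. It was at 178, 190 and 246 CPM on Day 2 and 18, 71.6 and 94.9 CPM on Day 3, with the Day 3 embryos all below, Day3-E1 included (80 CPM). The log2 fold change of RARS2 was -1.42 (SE 0.25, adjusted p = 0.000661 by edgeR), and it was -1.03 (adjusted p = 0.025) within the first barcode set. After thinning, RARS2 was detected in 91.9% of the cells on Day 2 (34 of 37) and 35.9% on Day 3 (37 of 103). Before thinning the shares were 95.3% and 66.9%.

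The 23 genes that did not pass the filter, 14 of them synthetases, had means of at most 17.3 CPM on Day 2 and 57.6 CPM on Day 3. By the exact two-sided permutation test of mean CPM, 0 were called after adjustment over the 5498 genes that did not pass, and 3 had an unadjusted p under 0.05. Of all 5498 genes, 0 were called too, and 1002 had an unadjusted p under 0.05. The test could reach 0.000333 at the lowest. In the edgeR fit with no filter, 5 of the 23 were higher, EIF2B2, QARS, TARS2, VARS2 and YARS, which are named after their values were seen. The largest of these changes was that of YARS, from 5.12 to 21.7 CPM on Day 2 to 2.62 to 147 CPM on Day 3, with Day3-E8 and Day3-E4 the highest and Day3-E1, Day3-E3 and Day3-E5 at 13 CPM or below (2.47, adjusted p = 0.0104 by edgeR).

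The values of the Day 3 embryos spread over a wider range than those of the Day 2 embryos in most of the genes described. In 7 of the 62 tested genes (11%) every Day 3 embryo lay above every Day 2 embryo, and in 4 (6.45%) every one lay below, against 3.98% and 5.38% of all genes tested. Day3-E1 was within the Day 2 range in 15 of the 25 genes called higher (60%), as it was in 57.7% of all 1117 genes called higher. The other 7 Day 3 embryos were all above the Day 2 embryos in 12 of the 25 genes. In 17 of them Day3-E1 was the lowest of the Day 3 embryos, in 19 either Day3-E4 or Day3-E8 was the highest, and in 11 these 2 were the top pair. The counts of 12, 17, 19 and 11 were not set against all genes called higher. Whether they are particular to the translation genes was therefore not tested. Among the 6 genes called lower, Day3-E1 lay within the Day 2 range in 1, TARS.

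Fits within groups of embryos that held both days gave the following counts, with plates numbered as in the cell titles. On plate 3, with 4 Day 2 and 2 Day 3 embryos, 14 of 39 initiation factor genes tested were higher and 0 lower, 3 of 10 elongation and termination factor genes were higher and 0 lower, and 1 of 19 synthetases was higher and 6 lower, against 15.22% and 9.437% of all genes tested there. On plate 2, with 2 embryos of each day, 17 of 38 initiation factor genes were higher and 1 lower, 2 of 9 elongation and termination factor genes were higher and 0 lower, and 4 of 18 synthetases were higher and 2 lower, against 19.43% and 9.482% of all genes. In the first barcode set Day3-E1 and Day3-E2, both on plate 1, stood against the 6 Day 2 embryos, all on plates 2 and 3, so day and plate cannot be told apart there. In it 5 of 38 initiation, 2 of 10 elongation and termination and 0 of 21 synthetase genes were higher and 1 synthetase was lower, against 5.28% higher and 0.3875% lower of all genes tested.

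Of the 31 genes called with all embryos, 20 were called in the same direction on plate 3, 20 on plate 2 and 8 of 30 tested in the first barcode set. Among the genes not called there, EIF3D had 0.30 and EIF3J 0.56 on plate 3 (adjusted p = 0.467 and 0.13), EIF1B 0.77 and DARS -0.98 on plate 2 (0.136 and 0.245), and EIF1AX 1.15, EIF1AD 1.73 and KARS 0.71 in the first barcode set (0.0884, 0.123 and 0.169). GARS was called in none of these fits (adjusted p = 0.0687, 0.116 and 0.117). ETF1 and EEF2 were called in each of these restricted fits, with 2.62, 4.66 and 3.1 for ETF1 and 1.64, 2.67 and 2.08 for EEF2 on plate 3, on plate 2 and in the first barcode set. EIF3A likewise had 1.87, 3.23 and 2.17, and EIF4A3, a helicase of the exon junction complex named here after its values were seen, had -0.10 on plate 3 (adjusted p = 0.884) against 1.18 with all embryos (adjusted p = 0.042). The EIF4A3 call was lost without Day2-E1, Day2-E2, Day2-E3, Day2-E5, Day2-E6, Day3-E2, Day3-E4, Day3-E7 or Day3-E8, with an adjusted p of up to 0.099.

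With 1 embryo left out at a time, 16 of the 19 initiation factor genes called higher stayed called in every fit in which they passed the filter, as did 2 of 4 elongation and termination factor genes (EEF2 and ETF1), 1 of 2 synthetases called higher (KARS) and 2 of 4 called lower (GARS and RARS2). EIF3G passed the filter in 8 of the 14 fits. The counts of genes that stayed called were not set against all genes called.

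The blastomeres of an embryo also differed from each other. In cells with 10000 or more UMI, the initiation sum spanned 1.15- to 1.29-fold between the lowest and the highest cell of a Day 2 embryo and 1.28- to 1.82-fold in a Day 3 embryo. The widest span was that of Day3-E7, from 13293 to 24206 CPM. The synthetase sum spanned 1.3- to 1.62-fold within Day 2 embryos and 1.45- to 2.26-fold within Day 3 embryos. Such a span also widens with more cells and with fewer UMI in a cell. A Day 2 embryo held 4 to 8 of these cells and a Day 3 embryo 11 to 14, and Day 3 cells held fewer UMI. The part of this in the wider Day 3 spans was not tested. Relative to counting at the depth of each cell, the variance of the initiation sum among the cells of an embryo was 1.51 to 5.65 times as large on Day 2 and 1.96 to 10 times on Day 3. For the elongation sum the ratio was 0.412 to 4.70 and 0.73 to 4.47, and for the synthetase sum 1.58 to 4.07 and 1.31 to 2.96. The median ratios on Day 2 and Day 3 were 3.41 and 3.9 for initiation, 1.21 and 2.7 for elongation, and 2.58 and 2.17 for synthetases. EIF1, EIF1B and EIF4A1 had a UMI in each of the 161 cells, 24 of the 85 genes in 90% or more of them, and 4 in under 10%.

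**Figure D5:**
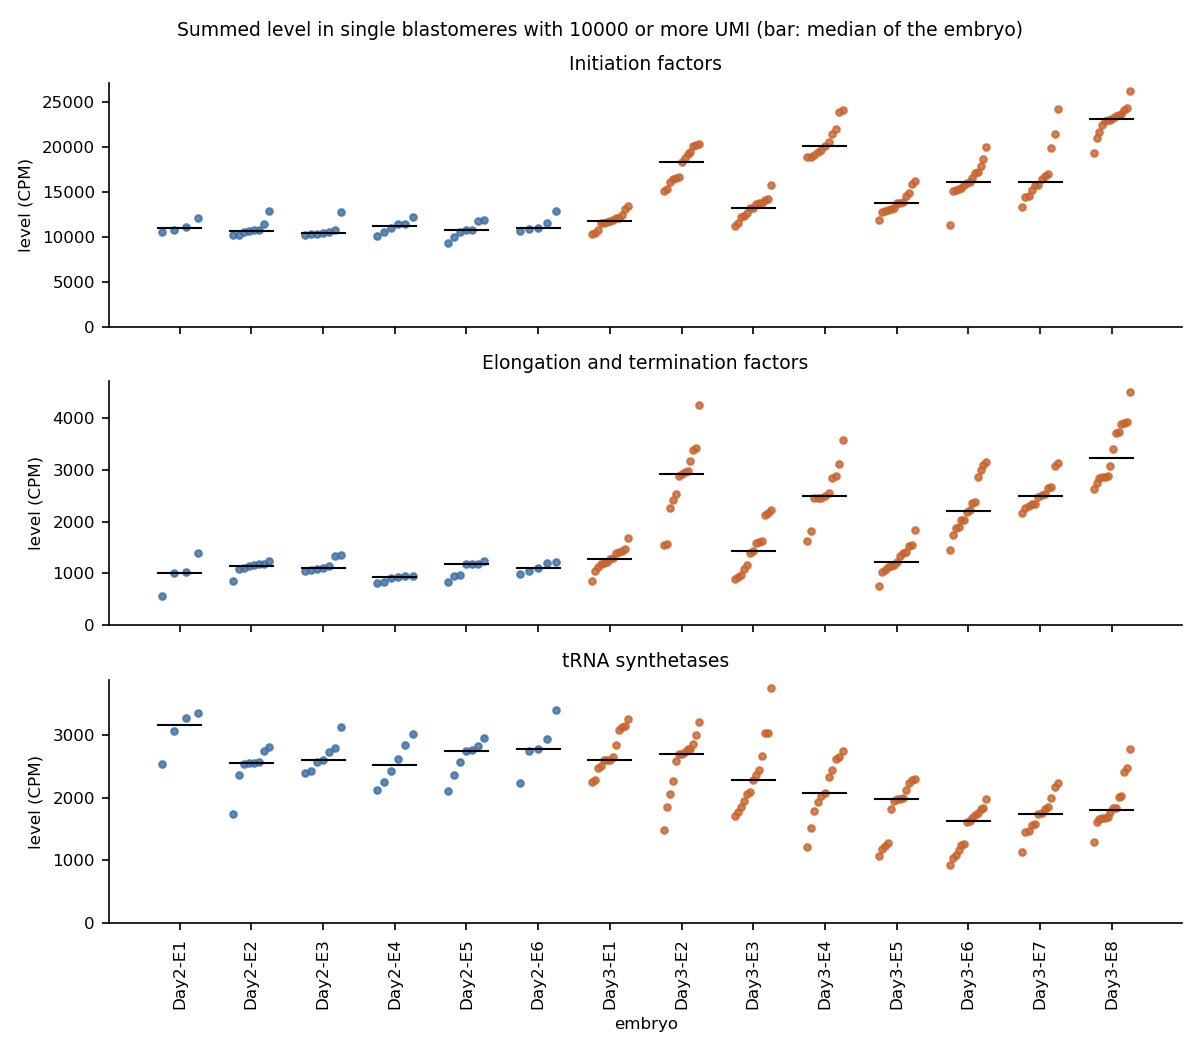
Summed level in CPM (y axis, from 0) of the initiation, elongation and termination, and synthetase genes in the single blastomeres of each embryo (x axis), for the 37 Day 2 (blue) and 103 Day 3 (orange) cells with 10000 or more UMI, with a bar at the median. The initiation level of the cells of Day3-E8 began at 19388 CPM, above the highest Day 2 cell, and the cells of Day3-E7 spread from 13293 to 24206 CPM.

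Translation genes outside the choice were listed for comparison. Of 18 other cytosolic factors tested 6 were higher and 2 lower (4 and 2 without TMM). DENR, which helps ribosomes recycle and restart, rose from 0 to 9.11 CPM on Day 2 to 12 to 113 CPM on Day 3 (3.75, SE 0.67, adjusted p = 0.000655 by edgeR). It was followed by PAIP2B, an inhibitor of the poly(A)-binding protein (2.08, adjusted p = 0.00943), and PDCD4, an inhibitor of eIF4A (1.75, adjusted p = 0.02). Of 8 mitochondrial translation factors 1 (12.5%) was higher and 3 (37.5%) lower. MTRF1L, a mitochondrial release factor, rose from 117 to 203 CPM to 230 to 922 CPM (1.90, adjusted p = 0.00169), while the initiation factor gene MTIF2 (-1.08, adjusted p = 0.0328) and the formyltransferase gene MTFMT (-1.01, adjusted p = 0.0207) fell. The MTIF2 call was lost without Day2-E2, Day2-E4, Day2-E6 or Day3-E7, with an adjusted p of up to 0.0553.

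Of 8 tested genes of the branch that reads eIF2 alpha phosphorylation, 2 (25%) were higher and 1 (12.5%) lower (2 and 2 without TMM). These shares were near the 21.18% and 11.28% of all genes tested. ATF4, its transcription factor, went from 294 to 371 CPM to 328 to 962 CPM (1.31, SE 0.29, adjusted p = 0.00332 by edgeR) and DDIT3 from 545 to 617 CPM to 660 to 1670 CPM without overlap (1.14, SE 0.24, adjusted p = 0.00244). ASNS, the asparagine synthetase and a target of ATF4, had -0.73 (adjusted p = 0.0495), a call that was lost in 11 of 14 fits that left out 1 embryo, all but those without Day2-E3, Day2-E4 and Day3-E5, with an adjusted p of up to 0.103.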

How the data were processed

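Per the labels, single blastomeres were processed by SCRB-Seq with ERCC spike-ins. The authors mapped the reads to Bos tau7 and the ERCC sequences with STAR 2.5.2b, and deposited whole-number UMI counts per gene and cell from the Drop-seq pipeline. The gene annotation and the treatment of reads shared by paralogues are not given in the sources used here, so close copies (EIF1 and EIF1B, EIF4A1 and EIF4A2, EEF1A1 and its pseudogenes) may have exchanged reads. A deposited normalised table was not used.

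Cells with 2000 or more UMI were summed per embryo without the 92 ERCC rows, low counts were removed with filterByExpr, and Day 3 was compared with Day 2 by edgeR 4.0.16 (quasi-likelihood, TMM, R 4.3.3) with Benjamini-Hochberg adjustment at 0.05. DESeq2 1.42.0, other scalings, filters, plates, the first barcode set and left-out embryos were alternatives. The steps were tested on simulated data. Of the 85 symbols, 69 matched a RefSeq symbol and 16 a synonym. Named were, per group, up to 12 genes called in each direction with the largest change, the 3 of highest mean level, the genes of role lists with 6 or fewer in the table, and up to 3 called genes of each list outside the choice. The genes and lists were chosen with earlier results of these data known. Nothing states that embryos came from separate cultures or parents, so p-values measure the spread between these embryos. Cell shares carry counting error only in part, since cells share embryos. Embryo numbers did not pair the days.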

Additional observations from a re-analysis of the deposited data

Results flagged for a closer look

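In each day the embryo farthest from the others was compared with the range of its day by Dixon's test. Of the 116 groups of embryos examined 11 were set apart, where chance alone sets apart about 1 in 20. On Day 2, Day2-E1 was high in EIF2B3 (113 CPM against 83.7 to 93.7 in the others), MTFMT (87.6 against 61.4 to 68.5) and EIF2AK2 (2.1, the others listed at 0) and low in PAIP2B (17.1 against 38.7 to 48.7). Day2-E4 was low in EEF1G (80.7 against 136 to 166) and MTRF1L (117 against 173 to 203), and Day2-E2 was low in TARS (92.4 against 146 to 173). On Day 3, Day3-E8 was high in EIF3J (613 CPM against 137 to 353) and EEF1A2 (5.15 against 0 to 1.67), Day3-E1 in EEF2K (78.3 against 20.3 to 41.9) and Day3-E5 in ASNS (44.2 against 25.7 to 33.9). EIF2AK2 and EEF1A2 rest on a few UMI. The calls of EIF2B3, EEF1G and TARS depended on single embryos, as given with their values, while those of EIF3J, MTRF1L, MTFMT and PAIP2B held without any 1 embryo.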

How the results depend on the processing

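Of 40 genes called, 11 kept their direction and their call in every alternative that could test them, 9 of them in all 29 (with cells thinned, 45 of the 71 genes described were tested). Of the 31 genes not called, 16 were called in no alternative. The sign changed in 2 genes called, AARS (-0.62 in the first barcode set) and EIF4A3 (-0.10 on plate 3), and in 16 not called, and the cause was not tested. In the first barcode set the changed values were EEF1A1 -0.13, EIF2A -0.05, EIF2B1 0.35, EIF2S3 0.01, HARS 0.05, IARS 0.03, LARS 0.01, MARS 0.09 and NARS 0.15. On plate 3 they were EEF2K -0.22, EIF2A -0.32, EIF2D -0.11, EIF3B 0.27, EIF3CL -0.06, EIF3L 0.15 and EIF4E2 0.10, and on plate 2 EIF3L 0.14 and IARS 0.24. With plate as a covariate they were EEF2K -0.01, EIF3B 0.11, EIF3L 0.15 and EIF4E2 0.06. On plates 2 and 3 with a plate term they were EEF2K -0.03, EIF3B 0.10, EIF3L 0.13 and EIF4E2 0.04, and without it EEF2K -0.07, EIF3B 0.11, EIF3L 0.20 and EIF4E2 0.00. Without TMM they were EEF1A1 -0.13, EEF2K -0.19 and EIF4A2 -0.08, with DESeq2 size factors EIF3B 0.02 and MARS 0.01, with cells thinned EIF4E2 0.21 and NARS 0.01, with no filter EEF2K -0.04, with the replicate block EEF1A1 -0.03, and without Day3-E4 and Day3-E8 EIF2A -0.19. With 1 embryo left out, values crossed 0 for EEF1A1 (-0.05 to 0.19), EEF2K (-0.16 to 0.13), EIF3B (-0.12 to 0.04), EIF3L (-0.22 to 0.05) and MARS (-0.10 to 0.04). With 1 embryo left out at a time, the counts of genes called higher ran from 17 to 21 (initiation), 2 to 6 (elongation and termination) and 1 to 4 (synthetases), and those called lower from 0 to 4, 0 to 0 and 2 to 7, with 4 and 7 lower without Day3-E1. The initiation factor genes called higher (19) fell to 5 in the first barcode set and to 9 with a replicate block. Those called lower (2) became 5 without TMM, 4 by DESeq2, 4 on plates 2 and 3 without a plate term, 1 with no filter or on plate 2, and 0 on plate 3, in the first barcode set, with cells thinned, without Day3-E4 and Day3-E8, or with the block. The elongation genes called higher (4) were 2 without TMM, with no filter, with cells thinned, in the first barcode set, on plate 2, without Day3-E4 and Day3-E8, and with the block. The synthetases called higher (2) were 7 by DESeq2, 6 with no filter, 4 on plate 2, 1 on plate 3, with plate as a covariate, with cells thinned or without Day3-E4 and Day3-E8, and 0 in the first barcode set or with the block. Those called lower (4) were 8 and 7 on plates 2 and 3 without and with a plate term, 2 on plate 2, and 1 with cells thinned, in the first barcode set or with the block. Over all genes 1712 were called, against 351 in the first barcode set, 1134 without Day3-E4 and Day3-E8, 704 of 2731 with cells thinned, and 702 with the replicate block. The settings on plates 2 and 3 together and without Day3-E4 and Day3-E8 were chosen after seeing the data. The block used the embryo numbers E1 to E6, which the days share as numbers only: the deviations of same-numbered embryos correlated between -0.134 and 0.0263 over genes. The ratios of the summed levels were rerun only without EIF1, EEF2 or NARS, with other UMI limits per cell, and with cells thinned. Each moved by less than the Day 3 SD over the Day 2 mean (0.354 initiation, 0.697 elongation, 0.148 synthetases), a wide measure. The elongation ratio went from 2.04 to 1.62 without EEF2, where the days came to overlap. With cells thinned the synthetase ratio went from 0.75 to 0.833, and more Day 3 embryos lay inside the Day 2 range. No plate, barcode set, block or left-out embryo setting was run for the sums. The fits within a plate or barcode set held 2 embryos of Day 3, and what change they could detect was not tested.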
